A study of Mus musculus with 12 samples.

Results

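Regulatory T cells (Tregs, CD4 T cells that restrain immune responses) were compared in a 2-by-2 design of Ezh2 genotype and surface CD62L, and the quantity described here is the interaction, the CD62Llo minus CD62Lhi difference in Ezh2-KO cells minus the same difference in Ezh2-HET cells. A value below 0 means that a gene lay relatively lower in CD62Llo cells when both Ezh2 alleles were floxed. The members were fixed by rule: 11 of the 12 libraries of the series, and 11237 of 23352 gene symbols, after symbols with a locus under 200 bp were left out (727 symbols, 194 of them otherwise expressed enough) and an FPKM (fragments per kilobase of transcript, scaled to library size) of at least 1 in at least 2 libraries was required. HET mice were Foxp3YFP-Cre/Foxp3WT;Ezh2fl/+ and KO mice were Foxp3YFP-Cre/Foxp3WT;Ezh2fl/fl, all of them C57BL/6 females, so every group carries the Cre on 1 of 2 Foxp3 alleles and at least 1 floxed Ezh2 allele. Tregs were sorted from spleen and lymph node into CD62Lhi and CD62Llo fractions. The Cre is expressed with Foxp3 and therefore acts in Treg-lineage cells. Foxp3 lies on chromosome X, and the labels give neither a YFP gate nor the age of the mice, so the share of cells that had used the Cre allele was not given in the sources used here. HET CD62Lhi was left with 2 libraries, because replicate 3 is set aside in its own label for low read counts and had 589 gene entries above 0. The other 3 groups had 3 libraries each.

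Ezh2 is the methyltransferase of Polycomb repressive complex 2 (PRC2), which trimethylates lysine 27 of histone H3 and keeps target genes silent. CD62L is the selectin that brings resting T cells into lymph nodes. T cells lose surface CD62L upon activation, so CD62Llo Tregs are mostly activated or effector cells and CD62Lhi Tregs mostly resting ones. The interaction asks whether the transcriptome that parts these fractions depends on Ezh2.

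The libraries had implied depths of 6.27 to 25.1 (in units of 1e6 fragments), and 10469 to 10854 genes had an FPKM of 1 or more in each. Pearson r of log2(FPKM + 1) across genes was 0.985 to 0.996 within groups and 0.957 to 0.994 between groups. KO CD62Llo replicate 3 had r of 0.985 to 0.989 with its own group, 0.981 to 0.986 with KO CD62Lhi and 0.984 to 0.987 with HET CD62Llo. Replicates 1 and 2 of KO CD62Llo had r of 0.989 with each other. With HET CD62Lhi, replicate 3 had r of 0.983 and 0.985, against 0.980 and 0.975 for replicate 1 and 0.973 and 0.970 for replicate 2. Ezh2 itself had FPKM of 12.7 and 12.5 in HET CD62Lhi, 18.2, 17.8 and 20.5 in HET CD62Llo, 9.15, 11.5 and 11 in the CD62Lhi libraries of KO and 12.5, 16.8 and 14.4 in its CD62Llo libraries. KO libraries lay below HET libraries in both fractions without overlap. By limma 0 of 11237 genes were called between genotypes in CD62Lhi, so the Ezh2 difference there did not pass. The share of all genes that separate without overlap between genotypes was not counted, for Ezh2 or for the genes below. A whole-gene FPKM does not part the floxed exons from the rest, so it checks the genotype only in part. The Ezh2 interaction was -0.12 on the log2 scale (SE 0.16, unadjusted p = 0.471). T cell and Treg markers were high in each library: Cd3e had FPKM of 219 to 333, Cd4 182 to 308, Foxp3 75.9 to 96.8 and Il2ra 108 to 138.

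Between the HET fractions, limma called 29 of 31 activated Treg genes and 15 of 21 helper lineage genes higher in CD62Llo and 24 of 28 resting T cell genes lower, against 19.7% higher and 9.34% lower over all genes tested. Between the KO fractions the counts were 27, 13 and 17, against 12.6% and 4.78%. The median fraction differences on the log2 scale were 2.58, 1.28 and -0.92 in HET and 1.71, 0.73 and -0.47 in KO. In a fit that paired libraries by replicate number, genes for the IL-18 receptor, Il18r1 and Il18rap, for the transcription factor Rora, for the protease Adam8 and for the inhibitory receptor Lilrb4 were among those whose rise into CD62Llo was smaller in KO, while Satb1, Bach2 and Klf2, which are high in resting T cells, fell less in KO. No gene passed an adjusted p of 0.05 for the interaction in the fit without pairing (0 of 11237, 0.0%, limma with Benjamini-Hochberg adjustment), although 869 had an unadjusted p under 0.05 (7.73%), 358 of them higher (3.19%) and 511 lower (4.55%). The lowest adjusted p, 0.0676, was shared by 10 genes. CD62Lhi and CD62Llo libraries of 1 genotype and 1 replicate number deviated from their group means together, and a fit that used these pairs called 92 genes (0.819%), 25 higher (0.222%) and 67 lower (0.596%), all 10 of the genes at the lowest unpaired p among them. This paired fit was added after the data were seen and takes the pairs through an estimated correlation. With the same pairs as a fixed block 1 gene passed, Rps27, and none of the 92 did. The count of 92 also rested on single libraries. It was 12 and 0 without HET CD62Lhi replicate 1 or 2, and 152, 11 and 27 without HET CD62Llo replicate 1, 2 or 3. It was 5, 69 and 37 without KO CD62Lhi replicate 1, 2 or 3, and 4, 214 and 45 without KO CD62Llo replicate 1, 2 or 3. With a pseudocount of 0.1 in place of 1 it was 23. Without pairing, 12 genes passed without HET CD62Llo replicate 1 and 2 without KO CD62Llo replicate 2. Whether the replicates were separate animals is not stated in the labels, and these p-values may measure technical spread.

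All 67 genes called lower in the paired fit had risen from CD62Lhi to CD62Llo in HET cells by the unpaired limma fit, with a median log2 difference of 1.46, and 54 of them also rose in KO cells, where the median was 0.63. All 25 called higher had fallen in HET cells, with a median of -1.01, and 16 of them also fell in KO cells, with a median of -0.38. Within CD62Llo cells the 67 genes were all called lower in KO than in HET, with a median difference of -0.77, and 23 of the 25 were called higher, with a median of 0.63. Within CD62Lhi cells none of the 92 was called between genotypes, with medians of -0.06 and 0.005. These 4 comparisons share libraries with the interaction, so they describe its shape and are not separate evidence. By limma over all genes tested, 29.0% were called between HET fractions (3263 genes, 19.7% higher and 9.34% lower in CD62Llo) and 17.4% between KO fractions (1958, 12.6% higher and 4.78% lower). Between genotypes 5.23% were called in CD62Llo (588, 1.57% higher and 3.67% lower in KO) and 0.0% in CD62Lhi. In CD62Lhi, KO against HET reached 1 call with array weights.

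Of the 92 genes, 87 had fraction differences of 1 direction that were smaller in KO, 5 had opposite directions and 0 were larger in KO. Among the 869 genes at an unadjusted p under 0.05, 712 (81.9%) were smaller in KO in the same direction, 14 (1.61%) were larger in KO and 143 (16.5%) went in opposite directions. The corresponding shares of all 11237 genes were 58.0%, 22.5% and 19.5%. The HET difference rests on 5 libraries and the KO difference on 6, and the part that this plays in the shares was not tested.

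**Figure D1:**
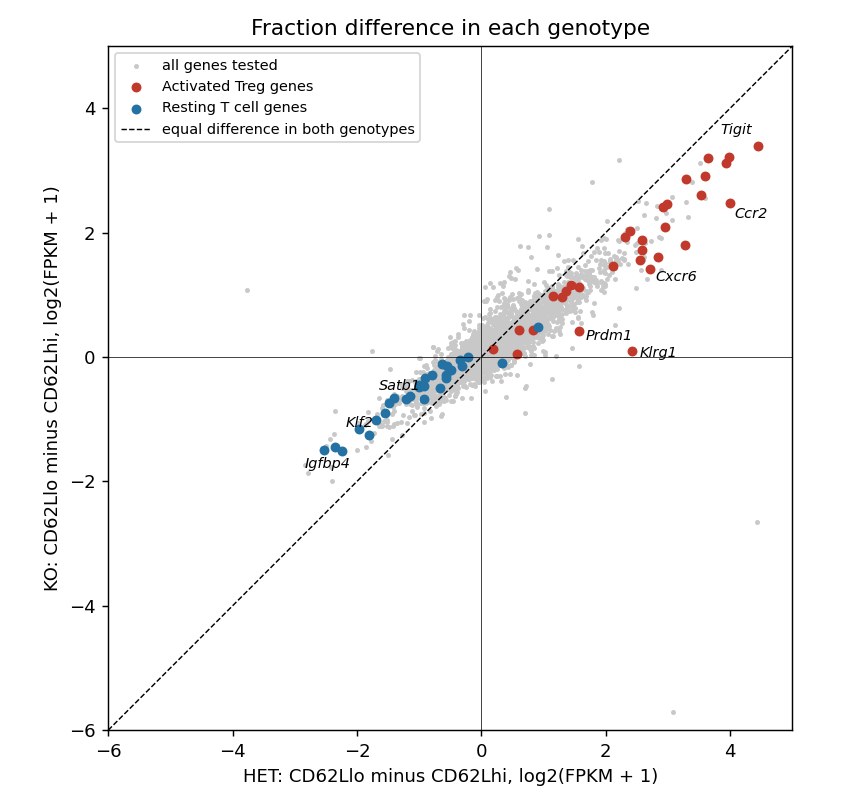
Each dot is a gene, placed by its CD62Llo minus CD62Lhi difference on log2(FPKM + 1) in HET (horizontal) and KO (vertical); red dots are activated Treg genes, blue dots resting T cell genes, grey dots all 11237 genes tested, and the dashed line marks equal differences. Red dots on the right lie below the line and blue dots on the left mostly lie above it, so both lists had smaller differences in KO.

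Both chains of the IL-18 receptor were among the 10 genes of lowest p. IL-18 is an inflammatory cytokine that acts on effector T cells and tissue Tregs, and the 2 genes lie side by side on chromosome 1. Il18r1, the ligand-binding chain (mm10 chromosome 1, 40465552 to 40500854), had FPKM of 16.3 and 16.2 in HET CD62Lhi, 50.0, 46.7 and 56.3 in HET CD62Llo, 15.9, 14.6 and 14.9 among KO CD62Lhi libraries and 24.3, 23.8 and 29.5 in KO CD62Llo. Its KO CD62Llo libraries all lay between the 2 HET fractions. The fraction difference was 1.59 in HET and 0.73 in KO, an interaction of -0.85 (SE 0.13, adjusted p = 0.0676 unpaired and 0.0182 paired, limma). Il18rap, the signalling partner chain (chromosome 1, 40515362 to 40549297), had FPKM of 0.984 and 0.848 in HET CD62Lhi against 5.49, 6.36 and 5.17 in HET CD62Llo, and 0.549, 0.663 and 0.788 in KO CD62Lhi against 1.59, 1.53 and 1.87 in KO CD62Llo. Every CD62Llo library was above every CD62Lhi library of its genotype, and the KO CD62Llo values stayed far below the HET ones. Its interaction was -1.12 (SE 0.15, adjusted p = 0.0676 unpaired and 0.0111 paired), and it passed in 14 of 15 alternatives of the paired fit, all except the one without HET CD62Lhi replicate 2. The fixed block is not among these alternatives, and Il18rap did not pass with it. A further gene of the same receptor cluster, Il1rl1, which encodes the IL-33 receptor ST2 (chromosome 1, 40439649 to 40465414), had FPKM of 2.08 and 1.01, then 3.35, 1.64 and 3.47 in the HET fractions, and 0.465 to 1.60 in the KO libraries of both fractions. Its interaction of -0.53 (95% interval -1.47 to 0.41) did not pass, so a difference as large as that of its neighbours was not resolved.

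Rora (chromosome 9, 68653802 to 69379028), a nuclear receptor of Th17 cells, innate lymphoid cells and skin Tregs, had FPKM of 2.77 and 2.29 in HET CD62Lhi and 9.82, 11.3 and 12.4 in HET CD62Llo. In KO the values were 3.37, 2.67 and 3 in CD62Lhi and 6.46, 5.37 and 5.16 in CD62Llo. KO CD62Lhi libraries overlapped the HET ones, whereas KO CD62Llo libraries were all lower than HET CD62Llo. The interaction was -1.05 (SE 0.16, adjusted p = 0.0676 unpaired, 0.0182 paired). Il4 (chromosome 11, 53612461 to 53618665), the main Th2 cytokine, was near 0 in both CD62Lhi groups (0.204 and 0 in HET, 0, 0.151 and 0 in KO). In CD62Llo its FPKM was 4.03, 5.54 and 2.95 in HET and 0.606, 1.07 and 0.783 in KO. Its interaction of -1.42 (SE 0.27) had adjusted p = 0.164 unpaired and 0.0240 paired. Csf1 (chromosome 3, 107741048 to 107760469), the macrophage growth factor gene, showed FPKM of 1.75 and 1.84 rising to 9.63, 11.7 and 8.98 in HET, against 1.37, 0.997 and 1.76 rising to 4.62, 4 and 4.34 in KO. Its interaction was -0.81 (SE 0.18, paired adjusted p = 0.0333).

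Adam8 (chromosome 7, 139978941 to 139992488), a membrane metalloprotease, had FPKM of 0.547 and 0.485 in HET CD62Lhi and 6.62, 6.55 and 9.68 in HET CD62Llo, while KO gave 0.600, 0.491 and 0.392 in CD62Lhi and 2.25, 2.09 and 2.34 in CD62Llo. The CD62Lhi groups overlapped and the CD62Llo groups did not. Its interaction was -1.37 (SE 0.19, paired adjusted p = 0.0111). Lilrb4 (chromosome 10, 51490975 to 51496611), an inhibitory receptor with ITIM motifs, rose from 0.722 and 0.397 to 8.92, 12.9 and 9.92 in HET and from 0.353, 0.456 and 0.440 to 2.09, 3.22 and 2.98 in KO (interaction -1.49, SE 0.23, paired adjusted p = 0.0182). Gp49a is a near-identical neighbour of Lilrb4, and its interaction of -1.40 (SE 0.26, paired adjusted p = 0.0255) is uncertain as a separate observation, since the sharing of reads between them was not tested. Gcnt1 (chromosome 19, 17326141 to 17372844) encodes the core 2 glycosyltransferase that builds selectin ligands on effector T cells. Its FPKM was 0.722 and 0.523 in HET CD62Lhi, 3.38, 4.05 and 4.45 in HET CD62Llo, 0.572, 0.493 and 0.660 for KO CD62Lhi, with 1.12, 1.45 and 1.32 for KO CD62Llo, an interaction of -1.07 (SE 0.16, paired adjusted p = 0.0182). Lsr (chromosome 7, 30957770 to 30973469), a lipoprotein receptor of tricellular junctions, is another of the 10 genes of lowest p. It had FPKM of 0.507 and 0.374, then 2.58, 3.45 and 2.93 in the HET fractions, but 0.292, 0.462 and 0.268, then 0.482, 0.395 and 0.563 in the KO fractions, which overlapped. The interaction was -1.32 (SE 0.17), with adjusted p = 0.0676 unpaired and 0.0111 paired, and the unpaired fit passed it with quantile normalisation, array weights, no trend or no filter.

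Klrg1 (chromosome 6, 122270597 to 122282833), a lectin-like inhibitory receptor of terminally differentiated T cells, had the most negative interaction of the genes named by rule. Its FPKM was 0.316 and 0.131 in HET CD62Lhi, 4.89, 3.01 and 10.9 in HET CD62Llo, 0.129, 0.208 and 0.295 in KO CD62Lhi against 0.0663, 0.120 and 0.826 in KO CD62Llo. KO fractions overlapped, and each HET CD62Llo library was above each of the other libraries. The interaction was -2.32 (SE 0.50, 95% interval -3.43 to -1.22), with adjusted p = 0.174 unpaired and 0.0361 paired. The chemokine receptor Cxcr6 (chromosome 9, 123806477 to 123811754), which guides cells to liver and lung, had FPKM of 1.88 and 1.41 rising to 13.2, 14.1 and 22.7 in HET and 1.59, 1.66 and 1.14 rising to 5.37, 5.57 and 5.69 in KO (interaction -1.29, SE 0.26, paired adjusted p = 0.0333). Ccr2 (chromosome 9, 124102183 to 124109140), a receptor for inflammatory monocyte chemokines, ran from 1.01 and 0.810 to 19.7, 31.6 and 40.6 in HET and from 0.297, 0.277 and 0.637 to 4.68, 6 and 10.9 in KO. Its interaction of -1.51 (SE 0.42) did not pass either fit (adjusted p = 0.302 unpaired and 0.0785 paired). Prdm1 (chromosome 10, 44437175 to 44458687), encoding the effector Treg regulator Blimp-1, had FPKM of 1.40 and 1.29 in HET CD62Lhi, 4.35, 6.57 and 7.32 in HET CD62Llo, 0.985, 1.12 and 1 among KO CD62Lhi libraries and 1.23, 1.65 and 2.39 in KO CD62Llo. The KO fractions did not overlap but their difference was not called (adjusted p = 0.137, limma), and the interaction of -1.15 (SE 0.26, adjusted p = 0.189) lay at the threshold in the paired fit without passing it.

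**Figure D2:**
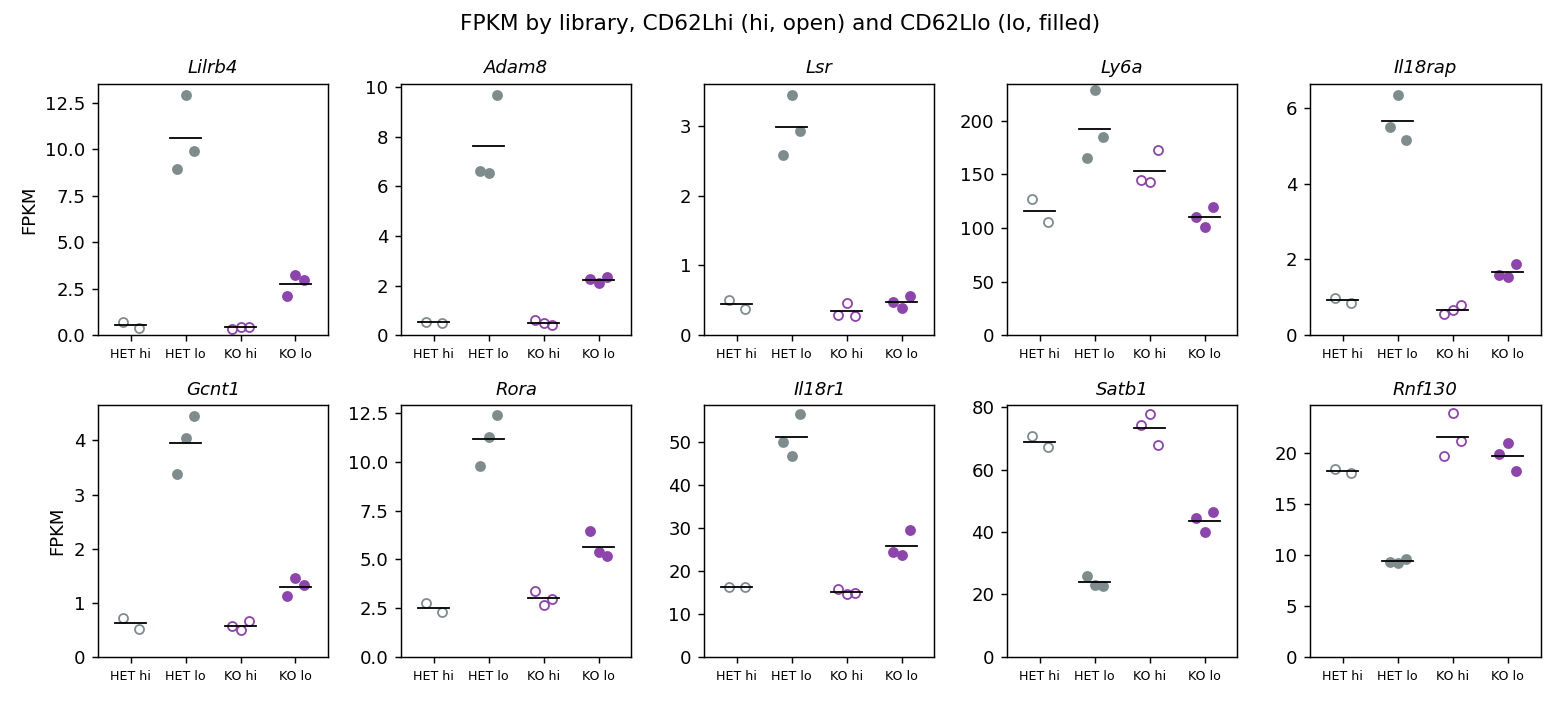
FPKM of the 10 genes of lowest interaction p by library, with open circles for CD62Lhi, filled circles for CD62Llo, grey for HET, purple for KO and bars for group means. For 7 genes the HET CD62Llo libraries lie above every other library, Satb1 and Rnf130 are lowest there, and Ly6a rises in HET and falls in KO.

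Satb1 and Rnf130 were the 2 members of the lowest-p group with a positive interaction. Satb1 (chromosome 17, 51736187 to 51833290), a chromatin organiser of developing and resting T cells, had FPKM of 70.8 and 67.3 in HET CD62Lhi, 25.9, 23.2 and 22.8 in HET CD62Llo, 74.4, 77.9 and 68.0 for KO CD62Lhi, with 44.4, 40.2 and 46.4 for KO CD62Llo. CD62Llo was lower in both genotypes, and the KO CD62Llo libraries lay between the HET fractions. The interaction was 0.75 (SE 0.11, adjusted p = 0.0676 unpaired, 0.0182 paired). Rnf130 (chromosome 11, 50025331 to 50104733), encoding the ubiquitin ligase Goliath, had FPKM of 18.3 and 18 falling to 9.29, 9.21 and 9.54 in HET, while KO had 19.6, 23.9 and 21.1 in CD62Lhi and 19.9, 21.0 and 18.2 in CD62Llo. No fall was called in KO, whose fractions overlapped (difference -0.12, adjusted p = 0.31). The interaction was 0.77 (SE 0.11, paired adjusted p = 0.0111). As for Il18rap, the call was lost among the alternatives of the paired fit only without HET CD62Lhi replicate 2. With the fixed block Rnf130 did not pass either.

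PRC2 is known to be recruited to regions rich in CG dinucleotides, so the promoters of these genes are shown with each CG in capitals. RefSeq promoter windows (GRCm38.p6, the mm10 assembly) were matched for 8 of the 10 genes, and the 250 bases before the start are printed for the 2 IL-18 receptor neighbours, for Satb1 and for the most CG-rich of the 8, Rnf130. They lie at chr1:40465302-40465551 (plus strand), chr1:40515112-40515361 (plus), chr17:51833291-51833540 (minus) and chr11:50025081-50025330 (plus).
Il18r1: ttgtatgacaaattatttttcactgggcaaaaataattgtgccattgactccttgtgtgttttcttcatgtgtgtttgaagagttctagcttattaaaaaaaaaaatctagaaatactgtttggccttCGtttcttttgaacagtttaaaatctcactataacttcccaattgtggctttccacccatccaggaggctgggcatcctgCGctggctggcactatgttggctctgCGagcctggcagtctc
Il18rap: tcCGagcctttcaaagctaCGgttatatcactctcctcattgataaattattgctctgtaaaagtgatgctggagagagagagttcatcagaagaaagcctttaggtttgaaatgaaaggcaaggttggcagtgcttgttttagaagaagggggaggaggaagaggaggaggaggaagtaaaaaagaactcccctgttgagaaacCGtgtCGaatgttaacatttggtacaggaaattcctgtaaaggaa
Satb1: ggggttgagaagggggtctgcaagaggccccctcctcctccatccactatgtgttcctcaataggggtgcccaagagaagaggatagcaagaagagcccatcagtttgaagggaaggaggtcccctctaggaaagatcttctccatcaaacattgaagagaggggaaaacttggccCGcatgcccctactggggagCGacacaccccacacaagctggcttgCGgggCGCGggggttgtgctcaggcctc
Rnf130: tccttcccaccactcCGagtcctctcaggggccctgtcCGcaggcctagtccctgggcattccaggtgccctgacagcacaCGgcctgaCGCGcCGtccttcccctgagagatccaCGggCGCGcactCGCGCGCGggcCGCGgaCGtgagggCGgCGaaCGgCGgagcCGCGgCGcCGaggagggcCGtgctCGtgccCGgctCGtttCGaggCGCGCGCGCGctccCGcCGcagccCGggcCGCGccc
The CG count was 3 for Il18r1, 4 for Il18rap, 5 for Satb1 and 39 for Rnf130, against a median of 16 over the 8378 tested genes with a window. Of the others, Gcnt1 had 2, Adam8 6, Lsr 13 and Rora 26. At least as many CGs were held by 94.5% of all windows for Il18r1, 91.5% for Il18rap, 88.8% for Satb1 and 2.82% for Rnf130. Since 98.9% of windows hold at least 1 CG, the count says nothing by itself, and 6 of the 8 windows were below the median while Rora and Rnf130 were above it. No histone mark was measured here, and these counts describe the letters of the windows alone.

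Ly6a, the gene of Sca-1 (chromosome 15, 74994877 to 74998031), was the member of the lowest-p group whose fraction difference turned around. It had FPKM of 127 and 106 in HET CD62Lhi and 165, 228 and 185 in HET CD62Llo, but 145, 143 and 173 in KO CD62Lhi against 110, 101 and 119 in KO CD62Llo. HET CD62Llo libraries were all above HET CD62Lhi, and KO CD62Llo libraries all below KO CD62Lhi. Both differences passed limma (0.72, adjusted p = 0.0028 in HET; -0.47, adjusted p = 0.024 in KO), and the interaction was -1.19 (SE 0.19, adjusted p = 0.0676 unpaired and 0.0182 paired). Over all genes tested, 36.6% had HET CD62Llo above CD62Lhi without overlap and 10.6% had KO CD62Llo below. The related neighbour Ly6i ran from 3.84 and 3.92 to 5.57, 5.81 and 5.77 in HET and from 4.58, 4.14 and 5.48 to 3.82, 3.28 and 4.16 in KO, with overlap in KO (interaction -0.73, SE 0.14, paired adjusted p = 0.0182). Reads of the 2 genes may be shared in part, since they are paralogs. Ly6c2, another gene of the Ly6 cluster and a resting T cell marker, differed in the other direction: it fell from 43.8 and 36.6 to 7.38, 5.68 and 8.25 in HET and from 43.8, 47.3 and 48.2 to 17.2, 12.4 and 20.7 in KO (interaction 0.91, SE 0.25, adjusted p = 0.294 unpaired, 0.0535 paired). Nod1, a sensor of bacterial cell walls, Pik3ip1, an inhibitor of PI3 kinase in resting T cells, and Lrrc24 were the 3 other genes with opposite directions among the 92. Their interactions were 0.45, 0.51 and 0.65, and each fell in HET (differences of -0.36, -0.49 and -0.47) while none was called in KO (0.09, 0.02 and 0.17).

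**Figure D3:**
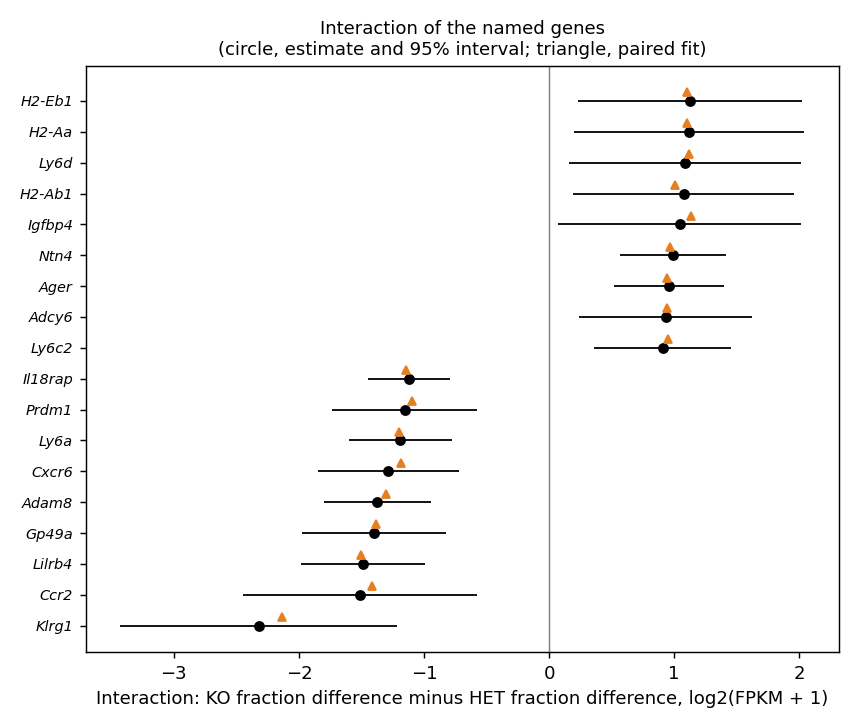
Interaction on log2(FPKM + 1) of 18 of the genes taken by a rule on size (circles, with 95% intervals from the unpaired limma fit) and the paired estimate (triangles); Rps27 is left out because its interval of 0.37 to 9.31 would set the axis. No gene passed the unpaired fit, and the paired estimates lie close to the unpaired ones.

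All 31 tested activated Treg genes, a list of effector Treg markers and receptors, had an interaction below 0, with a median of -0.66 against -0.01 over all genes tested, 53.3% of which were below 0. None passed the unpaired fit, 15 had an unadjusted p under 0.05, and the paired fit called 3 lower (Klrg1, Cxcr6 and Fgl2) and 0 higher. At that p 4.55% of all genes tested were below 0, and the paired fit called 0.596% of all genes lower. The list's median fraction difference was 2.58 in HET and 1.71 in KO, with 29 and 27 of its members called higher in CD62Llo. Several of its genes are known to mark the fractions in these same libraries, so its direction is no independent evidence. Fgl2, a secreted suppressive molecule of Tregs, had FPKM of 0.846 and 0.741 rising to 8.25, 9.35 and 11.3 in HET and 1.16, 0.706 and 1.38 rising to 4.70, 4.39 and 6.19 in KO (interaction -1, SE 0.23, paired adjusted p = 0.0333). Tigit, an inhibitory receptor of activated Tregs, went from 3.90 and 5.70 to 93.6, 174 and 115 in HET and from 1.70, 1.99 and 4.06 to 25.4, 37.9 and 45.7 in KO. Its interaction of -1.04 (95% interval -2.01 to -0.07) did not pass (adjusted p = 0.603 unpaired, 0.143 paired). Gzmb, a cytotoxic protease, had -0.76 (-1.42 to -0.11) and Maf, a transcription factor of Il10-expressing T cells, -0.69 (-1.31 to -0.07), and neither passed. Il10 itself was uneven between replicates, at 5.15, 20.8 and 16.1 in HET CD62Llo and 1.05, 1.82 and 7.67 in KO CD62Llo, and its interval was -3.27 to 0.31. Cd44, an adhesion receptor and a classical activation marker, rose in both genotypes (1.44 in HET, 1.15 in KO), with an interaction of -0.29 (-0.68 to 0.09).

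**Figure D4:**
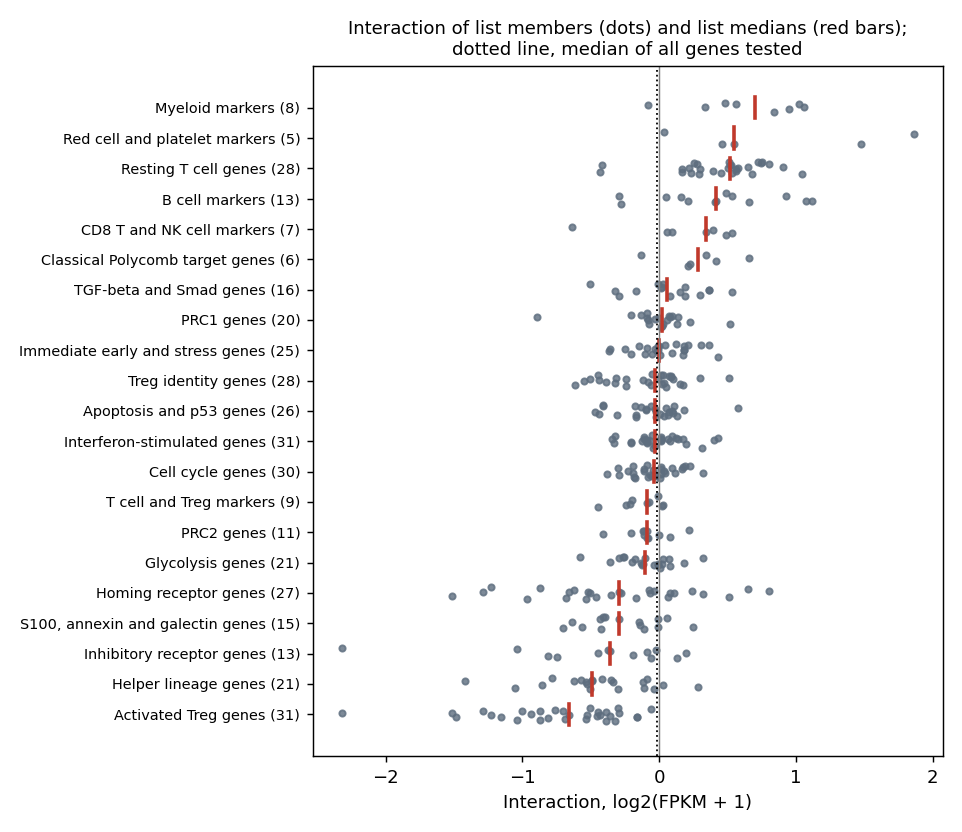
Interaction on log2(FPKM + 1) of the members of each gene list (dots, number tested in parentheses), with list medians in red and the median of all genes dotted. Activated Treg genes lie wholly below 0 (median -0.66), resting T cell genes mostly above 0 (median 0.52), and Treg identity genes around 0 (median -0.03).

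Helper lineage genes, the regulators and cytokines of Th1, Th2, Th17 and follicular cells, had 19 of 21 tested members below 0 and a median of -0.49. The paired fit called Il4, Rora and Il18r1 lower and 0 higher, and 9 had an unadjusted p under 0.05 in the unpaired fit. The master regulators of Th1 and Th2 cells were not among them. Tbx21 had FPKM of 1.30 and 0.973 rising to 5.03, 4.38 and 3.28 in HET and 0.746, 0.917 and 0.855 rising to 2.78, 3.59 and 1.75 in KO (interaction -0.30, 95% interval -0.89 to 0.29). Gata3 lay between 15 and 24.4 in each library (interaction -0.12, -0.42 to 0.19). Ifng, the Th1 cytokine, had -0.49 (-1 to 0.02). Of 13 inhibitory receptor genes 11 were below 0 (median -0.36), with Klrg1 called by the paired fit. Set against both lists, 53.3% of all genes tested were below 0, and 4.55% were so at an unadjusted p under 0.05. The paired fit called 0.596% of all genes lower. Lag3 rose from 6.44 and 7.95 to 92.0, 136 and 151 in HET and from 5.22, 6.18 and 9.40 to 51.2, 74.1 and 76.6 in KO, with an interaction of -0.82 (-1.57 to -0.06) that did not pass. Pdcd1, encoding PD-1, had -0.36 (-1.04 to 0.32) and Ctla4 -0.45 (-0.93 to 0.03). The median of this list rested on few libraries, at -0.13 without HET CD62Llo replicate 2 and -0.48 without HET CD62Llo replicate 1.

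Of 27 homing receptor genes tested, 19 were below 0 and 8 above (median -0.29), and the paired fit called Cxcr6 and Gpr15 lower. Shares of all genes tested were 53.3% below 0 and 0.596% called lower by the paired fit. Gpr15, a receptor for homing to colon, had FPKM of 2.18 and 1.36 in HET CD62Lhi, 20.2, 15.7 and 22.4 in HET CD62Llo, 0.996, 1.13 and 1.49 among KO CD62Lhi libraries and 5.95, 7.25 and 9.02 in KO CD62Llo (interaction -0.97, SE 0.25, paired adjusted p = 0.0433). The lymph node trafficking genes Ccr7 and S1pr1 had interactions above 0 that did not pass. Ccr7, the receptor for lymph node entry, had FPKM of 208 and 189 falling to 143, 125 and 117 in HET and 210, 236 and 188 against 195, 229 and 164 in KO, where the fractions overlapped (interaction 0.51, 95% interval 0.10 to 0.92). S1pr1, the receptor for exit from lymph nodes, fell from 195 and 190 to 67.4, 60.3 and 67.7 in HET and from 189, 217 and 195 to 103, 93.1 and 125 in KO (interaction 0.65, 0.32 to 0.98, paired adjusted p = 0.0510). S100, annexin and galectin genes had 13 of 15 below 0 (median -0.29), with S100a11 and S100a10 called lower by the paired fit. S100a11, a calcium-binding protein gene, rose from 94.2 and 96.4 to 442, 489 and 397 in HET and from 72.5, 75.0 and 76.5 to 224, 252 and 195 in KO (interaction -0.64, SE 0.14, paired adjusted p = 0.0333).

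Resting T cell genes, those of quiescence and lymphoid recirculation, mirrored the activated list. Of 28 tested, 26 were above 0 and the median was 0.52. An unadjusted p under 0.05 was reached by 18 in that direction and 1 in the other. The paired fit called 6 higher (Satb1, Bach2, Klf2, Txk, Treml2 and Bcl2) and 0 lower. Shares of all genes tested were 46.7% above 0, 3.19% above 0 at that p and 0.222% called higher by the paired fit. Bach2, a repressor of effector differentiation, had FPKM of 18.5 and 19.5 in HET CD62Lhi, 8.76, 8.92 and 9.22 in HET CD62Llo, 18.6, 19.9 and 18.8 for KO CD62Lhi, with 13.8, 12.4 and 15.2 for KO CD62Llo (interaction 0.56, SE 0.11, paired adjusted p = 0.0285). Klf2, which drives S1pr1 transcription, fell from 168 and 154 to 51.6, 51.1 and 44.9 in HET and from 151, 170 and 167 to 76.2, 71.7 and 94.1 in KO (interaction 0.68, SE 0.15, paired adjusted p = 0.0387). Bcl2, a survival factor, fell from 68.6 and 70.3 to 35.4, 36.9 and 37.3 in HET and from 70.0, 69.7 and 76.0 to 55.9, 50.5 and 65.2 in KO (interaction 0.58, SE 0.12, paired adjusted p = 0.0274). In each of these 3 the CD62Lhi groups overlapped and the KO CD62Llo libraries lay above the HET ones. The share of all genes that separate so between genotypes was not counted. By limma 1.57% of all genes were called higher in KO within CD62Llo. Lef1, a Wnt-pathway transcription factor of naive T cells, had 0.52 (95% interval 0.23 to 0.80, paired adjusted p = 0.0822), and its relative Tcf7 had 0.22 (-0.26 to 0.69). The 2 genes below 0 were Il7r and Slamf6.

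In sorted populations a different mix of cells in a fraction and a different transcript level per cell cannot be told apart, and the part of the gate in the list values was not tested.

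Treg identity genes showed no common shift: 15 of 28 were below 0, the median was -0.03, and none was called by the unpaired or the paired fit. Foxp3 had FPKM of 93.7 and 89.8, then 84.5, 84.0 and 95.6 in the HET fractions and 91.7, 84.7 and 87.0, then 80.0, 75.9 and 96.8 in the KO fractions. All groups overlapped, and the interaction was -0.01 (95% interval -0.29 to 0.28). Il2ra had 0.03 (-0.33 to 0.38), and Ikzf2, encoding the Treg factor Helios, -0.24 (-0.56 to 0.07). Tnfrsf1b, encoding TNF receptor 2 on activated Tregs, was the member farthest below 0, with 28.9 and 31.6 rising to 73.2, 104 and 97.2 in HET and 26.9, 26.8 and 26.3 rising to 49.2, 55.0 and 51.5 in KO (interaction -0.62, SE 0.16, paired adjusted p = 0.0581).

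**Figure D5:**
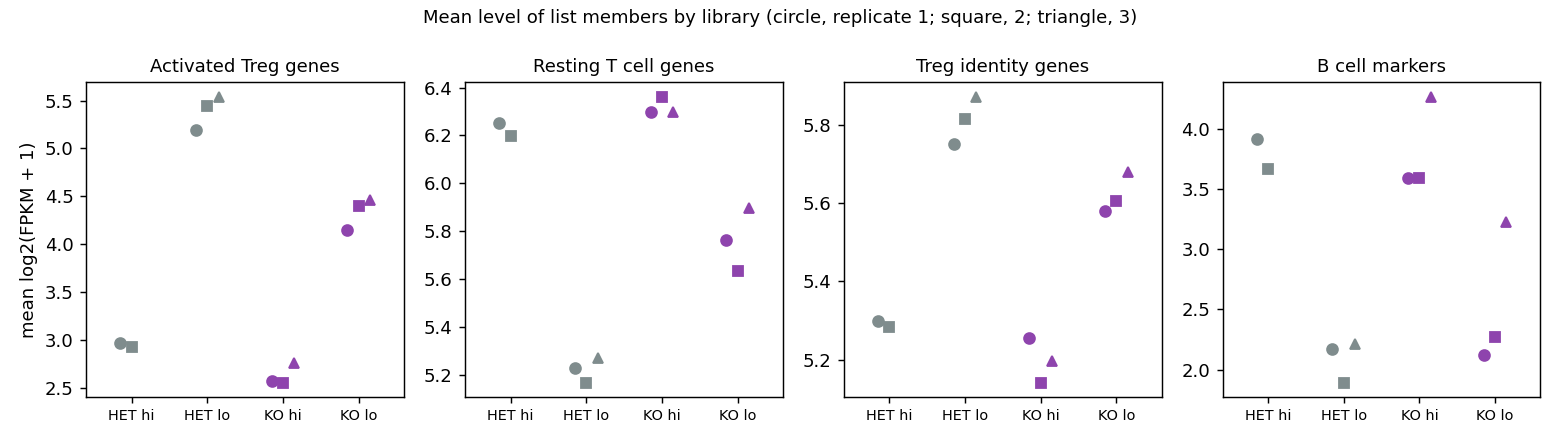
Mean log2(FPKM + 1) of the members of 4 lists in each library, with symbols for the replicate number and separate vertical axes that do not start at 0. For activated and resting genes the KO CD62Llo libraries lie between the HET CD62Llo libraries and the CD62Lhi libraries of both genotypes, and for B cell markers KO CD62Llo replicate 3 is the highest of the CD62Llo libraries.

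Polycomb genes themselves were mostly not called. Of 11 PRC2 genes the paired fit called Aebp2, a DNA-binding accessory subunit, with FPKM of 56.9 and 56.5 rising to 93.0, 106 and 97.2 in HET and 52.5, 55.3 and 60.3 rising to 70.8, 72.2 and 75.7 in KO (interaction -0.41, SE 0.10, paired adjusted p = 0.0376). Of 20 PRC1 genes it called Pcgf2, the ring-finger subunit Mel-18, which had FPKM of 0.527 and 0.284, then 3.28, 2.75 and 2.55 in the HET fractions and 0.314, 0.207 and 0.305, then 0.825, 0.913 and 0.920 in the KO fractions (interaction -0.89, SE 0.16, paired adjusted p = 0.0182). List medians were -0.09 and 0.02, and the paired fit called 0.596% of all genes tested lower. Only 6 of 38 classical Polycomb target genes passed the FPKM filter, so no statement over that list is made. Cdkn2a, the cell cycle inhibitor locus that PRC2 silences in many cells, stayed at FPKM of 0.0289 to 0.421 in the 11 libraries and was not tested.

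Interferon-stimulated genes had a median interaction of -0.03 (31 tested), immediate early and stress genes -0.0004 (25), cell cycle genes -0.03 (30), glycolysis genes -0.11 (21), apoptosis and p53 genes -0.03 (26) and the TGF-beta pathway with its Smad genes 0.06 (16). An unadjusted p under 0.05 in the unpaired fit was reached by 4 TGF-beta and Smad genes above 0 and 1 below, by 4 glycolysis genes below 0 and 0 above, and by 4 apoptosis and p53 genes below 0 and 1 above. The interferon-stimulated list had 1 above and 0 below, immediate early and stress genes 2 and 0, and cell cycle genes 0 and 1. Over all genes tested, the shares at that p were 3.19% above 0 and 4.55% below. Bcl2 was the member of these lists that the paired fit called. In size, Mki67 had an interaction of -0.38 (95% interval -0.93 to 0.17), Tpi1 -0.36 (-0.67 to -0.04) and Hspa1b 0.43 (-2.66 to 3.52), the last from values between 0.128 and 13 that were highest in replicate 1 of all 4 groups.

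Transcripts of other cell types were present and differed in level between libraries. Over all genes tested, 46.7% had an interaction above 0. The summed FPKM of 13 B cell markers was 386 to 486 in HET CD62Lhi, 96.2 to 157 in HET CD62Llo, 370 to 589 among KO CD62Lhi libraries and 131 to 257 in KO CD62Llo. Of these 13 markers, 11 had an interaction above 0 (median 0.42). MHC class II genes, which B cells and myeloid cells express, were among the highest interactions of the genes named by rule, and none passed. H2-Aa fell from 79.8 and 65.1 to 18.9, 8.69 and 11.7 in HET and from 62.7, 63.4 and 99.0 to 20.9, 30.6 and 37.2 in KO (interaction 1.12, adjusted p = 0.522 unpaired, 0.127 paired), H2-Eb1 had 1.12, H2-Ab1 1.07 and Ly6d, an antigen of B-lineage cells, 1.09. The part of B cells in these values and in those of the resting T cell list was not tested. Summed myeloid markers were 93.3 to 123 in HET CD62Lhi, 149 to 246 in HET CD62Llo and 92.4 to 106 for KO CD62Lhi. KO CD62Llo replicates 1, 2 and 3 had 274, 439 and 121. Of 8 tested myeloid markers 7 had an interaction above 0, and none had an unadjusted p under 0.05 (limma). Of the myeloid markers, S100a8, S100a9 and Mpo were at or near 0, with FPKM of at most 0.818, and Lyz2 ran from 7.60 to 219. Of 13 stroma and endothelium markers 2 passed the FPKM filter, Pecam1, an adhesion molecule that T cells also express, and Acta2. Pecam1 had FPKM of 67.1 to 72.0 and 36.8 to 40.3 in the HET fractions and 68.2 to 78.6 and 50.6 to 55.7 in the KO fractions, was called lower in CD62Llo in both genotypes, and had an interaction of 0.36 (unadjusted p = 0.00396, paired adjusted p = 0.0826). Acta2 had FPKM of 1.75 to 2.98. Of the other 11, Pdgfra was at 0 in every library and Lum, Dcn and Cdh5 were at most 0.0739. Among the genes above 0 that are not B cell markers, Igfbp4, a resting T cell gene, had 1.04 (SE 0.44), Ntn4, a netrin, 0.99 (SE 0.19, paired adjusted p = 0.0323), Ager, the receptor of glycated proteins, 0.96 (SE 0.20, paired adjusted p = 0.0399) and Adcy6, an adenylate cyclase, 0.93 (SE 0.31, paired adjusted p = 0.153).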

How the data were processed

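RNA was measured by poly(A) RNA-seq of sorted Tregs, extracted with TRIzol, in single-end reads of 50 bp, per the labels' protocols. The authors deposited FPKM per gene for each library, per the submitters' processing notes with TopHat and Cufflinks 2.1.1 on mm10 (with CASAVA 1.8.2 and FastQC also named). Settings and the TopHat version: not given in the sources used here. FPKM are not counts, so no count model was fitted, and depth was implied from the interval deposited by the authors beside each FPKM, read as 2 SD to each side. In the 11 libraries 12.1% to 30.8% of entries with an FPKM above 1 lay above their own upper bound, so the depths are uncertain.

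Entries of 1 symbol were summed (250 symbols had more than 1). Rn4.5s (174 bp), Snora23 (184) and Snora74a (198) were the longest loci left out, and Snord17 (221), Scarna6 (248) and Scarna13 (275) the shortest kept. Differences are on log2(FPKM + 1), which understates changes of genes with low FPKM. One model with 4 group means was fitted to the 11 libraries with limma 3.58.1 in R 4.3.3 (empirical Bayes with a trend, two-sided), and p-values were adjusted by Benjamini-Hochberg over all 11237 genes, with a threshold of 0.05.

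Labels give the groups shared replicate numbers and name no shared animal or day. Deviations of same-numbered CD62Lhi and CD62Llo libraries correlated at r of 0.444 to 0.505 in all 5 pairs within a genotype (-0.495 to 0.134 for other numbers), and at -0.204 to 0.316 across genotypes. Deviations from a group mean cancel within each group, so a positive r for same numbers pushes r for other numbers down in both genotypes. The range for other numbers within a genotype is therefore not separate evidence for the pairs. The 2 HET CD62Lhi libraries mirror each other, so the HET pairs are not independent. From the same-number correlations, the numbers were taken as pairs within a genotype. The paired fit uses limma's duplicateCorrelation (statmod 1.5.0, estimated correlation 0.43).

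Members and gene lists were chosen with earlier results of these data known. Genes were named by rule: per direction the 10 largest interactions at an unadjusted p under 0.05 whose highest group had a mean FPKM of 5 or more (without symbols of predicted genes, pseudogenes, small RNAs or receptor segments), up to 2 or 4 members of each list, and a set that includes Ezh2, Foxp3 and Klf2. The 10 genes of lowest p, the genes called by the paired fit, Il1rl1, Lag3, Pdcd1, Lef1, Tcf7, Ccr7, S1pr1, Il10, Tbx21, Gata3, Mir680-3 and Mir1954 were named after their values were seen. Mitochondrially encoded genes had 0 listed symbols, and CD8 T and NK cell, plasma cell and red cell and platelet markers had 7, 4 and 5 tested members, medians of 0.35, -0.06 and 0.55 and 0 calls. Some genes of these lists are not reported here.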

Additional observations from a re-analysis of the deposited data

Results flagged for a closer look

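Ly6a had an interaction of -1.19 on the log2(FPKM + 1) scale, because each HET CD62Llo library lay above the HET CD62Lhi libraries and each KO CD62Llo library below the KO CD62Lhi ones. The difference was tested by limma's interaction, with adjusted p = 0.0676 unpaired and 0.0182 paired.

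Lrrc24, a leucine-rich repeat gene, had an interaction of 0.65 for the reverse pattern. Its FPKM was 1.68 and 1.52 in HET CD62Lhi, 0.902, 0.925 and 0.791 in HET CD62Llo, then 1.16, 1.08 and 1.26 for KO CD62Lhi against 1.63, 1.37 and 1.34 for KO CD62Llo. HET CD62Llo was below HET CD62Lhi and KO CD62Llo above KO CD62Lhi without overlap. The interaction had adjusted p = 0.174 unpaired and 0.0349 paired (limma). The fall in HET was called by limma, but the rise in KO was not, so the reversal rests on the absence of overlap. Such separation was not rare in either genotype over all genes tested, and the FPKM of Lrrc24 lay near the filter minimum in every library.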

How the results depend on the processing

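The unpaired count of interaction calls, 0, was 3 with no filter or quantile normalisation, 15 with array weights, 2 without the trend, 0 with a replicate block across all groups, 1 with a fixed replicate block within a genotype, 92 with the pairs as an estimated correlation, and 0 to 12 with 1 library left out; the causes were not tested. The paired count was 23 with a pseudocount of 0.1 and 0 to 214 with 1 library left out. Left-out libraries moved the calls between HET fractions to 2034 to 3441, between KO fractions to 1301 to 2063 and between genotypes in CD62Llo to 253 to 690. Calls between KO fractions were 3041 and 3360 with the fixed and estimated pairing within a genotype. Calls between genotypes in CD62Llo were 929 with the replicate block and 346 with the fixed one, and in CD62Lhi 1 with array weights and 1 with the fixed block. Medians kept their sign for the activated (-0.75 to -0.53), resting (0.43 to 0.57), helper (-0.53 to -0.32), inhibitory (-0.48 to -0.13), homing (-0.43 to -0.18) and S100 (-0.40 to -0.16) lists with 1 library left out, and Treg identity ran from -0.06 to 0.01. The helper median was -0.32 with no filter, the inhibitory one -0.24 with the fixed block, and the homing one -0.36 with array weights and -0.37 with the replicate block. Interactions near 0 changed sign. Foxp3 was 0.013 with median centring, 0.049 with array weights, 0.047 with the replicate block, 0.055 with the fixed block and 0.021 with the estimated correlation, and Hspa1b was -0.17 with the replicate block. With 1 library left out Foxp3 ran from -0.11 to 0.065, Hspa1b from -0.48 to 1.22, Igj from -0.97 to 0.44, Il2ra from -0.064 to 0.12 and Pax5 from -0.035 to 0.72. FPKM without counts give no counting error, so genes with low FPKM were limited by a depth that could only be implied.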

Other observations

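Some interactions of large size came from genes whose replicates differed widely. Mir680-3 (chromosome 10, 25867370 to 25894505) was listed at 0 in both HET CD62Lhi libraries, at 0, 0 and 612 FPKM in HET CD62Llo, at 364, 393 and 0 for KO CD62Lhi and at 0 in all 3 KO CD62Llo libraries. Its interaction of -8.80 had adjusted p = 0.622 (limma). Mir1954 (chromosome 2, 113220187 to 113423560) had FPKM of 228 and 0 in HET CD62Lhi, 286, 261 and 467 in HET CD62Llo, 348, 150.2 and 425 for KO CD62Lhi, then 382, 0 and 238 in KO CD62Llo, with an interaction of -7.08 (adjusted p = 0.665). The entries of both span more than 200 bp, so the rule on locus length kept them. Rps27, a ribosomal protein gene, had FPKM of 305 and 268 in HET CD62Lhi, 11.6, 8.31 and 77.4 in HET CD62Llo, 149, 10.2 and 107 for KO CD62Lhi, with 392.2, 12.1 and 325 for KO CD62Llo, and an interaction of 4.84 (SE 2.02, adjusted p = 0.602 unpaired, 0.113 paired). It was the 1 gene that passed when each replicate pair within a genotype was a fixed block.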
